A study of Rattus norvegicus with 56 samples.

Results

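Cultured rat hippocampal neurons collected 8 h after intermittent theta burst stimulation (iTBS) were compared with sham-treated cultures collected at the same time. The 6 arrays, 3 iTBS and 3 sham, were chosen by their titles from the 56 arrays of a series that followed 1 Hz, iTBS and sham stimulation over 5 time points, with 16 groups in all. Both groups were primary cultures of dissociated hippocampal cells from E18 embryos of Sprague-Dawley rats, and no genetic change or drug was named for either. In iTBS, magnetic pulses come in short high-frequency bursts grouped into trains separated by pauses. Dishes of the iTBS group stood centered on an inverted coil inside an insulated incubator, whereas for sham the dish stood in the incubator with the coil moved away, and all dishes then went back to an incubator with no coil. The tissue was labelled only as brain, the total RNA was that of every cell in the dish, and each sample was hybridized alone to a 1-color array. The labels did not say whether replicates came from separate cultures, so p-values measure only the spread between samples. With limma that spread came from 55 arrays of all 16 groups unless only the 6 arrays were fitted. Sample numbers in the descriptions fall into runs, called series B, C and D here, and replicates 1, 2 and 3 of both groups belong to series B, C and D in that order. Only in series C did both arrays share a slide. In series B iTBS was on slide 4 and sham on slide 3, and in series D they were on slides 5 and 4. Slide and treatment cannot be told apart within these 2 pairs. The question was which transcripts differed from sham 8 h after the end of iTBS.

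Strong synaptic activity turns on immediate-early genes within minutes. Fos, Egr1 and Npas4 encode transcription factors and Arc a protein that helps remove AMPA receptors from synapses. This wave usually fades within hours and is followed by slower genes that include growth factors, neuropeptides and modifiers of channels and receptors, so that a late time point reads the second wave and any lasting change more than the first. Cultures of this kind hold neurons together with astrocytes and oligodendrocyte progenitors. In bulk RNA, fewer cells of a type and less RNA per cell cannot be told apart.

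Very few probes separated the groups at 8 h. Of 35694 probes tested, 2 passed limma at an adjusted p under 0.05, which is 0.0056% of them. A probe for Endou, which encodes a poly(U)-specific endoribonuclease, was higher after iTBS, and the probe A_44_P1130837, matched to no symbol and annotated to the accession XR_349196, was lower. Without adjustment 315 probes (0.883%) had a p under 0.05, and 1147 (3.21%) did when the shared series was fitted as a block. Values were put on a log2 scale on which every array has the same mean and SD, with 0 at each array's mean over probes. On that scale the median difference over all probes was +0.03, and 20018 probes were positive. Among the 26733 probes well above background on all 6 arrays, the median absolute difference was 0.107, 95% were under 0.378, and the median standard error (SE) of the difference was 0.333. Only 25 of them differed by more than 1. Over all probes tested the median SE was 0.397, against 0.2315 with the series fitted as a block. Values after ± are from the fit without the block unless marked SD. The 3 arrays of each group did not overlap for 992 probes (2.78%), and iTBS differed from the sham array of its own series in the same direction in all 3 series for 8118 probes (22.7%), 4685 of them higher and 3433 lower.

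The arrays themselves were alike in most respects. Correlations among the 6 arrays ran from 0.954 to 0.991, and over the 55 arrays of the series that entered the fit 66.1% to 81.8% of spots were well above background. The share was 72.4%, 72.1% and 75.3% on the iTBS arrays of series B, C and D and 72.0%, 72.0% and 70.7% on the sham arrays (exact permutation test, two-sided, p = 0.1, the smallest p that 3 against 3 allows). The 75th percentile of signal was 3539, 4906 and 7429 on the iTBS arrays and 3064, 5864 and 3471 on the sham arrays. The iTBS array of series D was therefore the brightest of the 6 and its sham partner among the dimmest.

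Endou was at the background level on every sham array and above it on every iTBS array. Its processed signals on sham ran from 3.59 to 4.40, and on iTBS they were 25.2, 191 and 46.0 in series B, C and D. On the log2 scale the sham levels were −4.81, −4.73 and −4.68 and the iTBS levels −1.78, 0.90 and −1.55. The spread among the iTBS arrays, with an SD of 1.48, was far wider than the 0.07 among sham arrays, and the groups did not overlap. The difference was +3.93 ± 0.55 (SE, n = 3 and 3; limma adjusted p = 0.000392), and adjusted p was 0.0012 with the series as a block. Both fits take the spread from all 55 arrays. With only the 6 arrays in the fit the call was lost, at an adjusted p of 1, or 0.932 with the series paired. Because sham gave no more than background, iTBS was at least 4.04-fold higher. All 3 iTBS signals stood low on their arrays, whose 75th percentiles were 3539 to 7429. Under the normexp background correction, which raises all dim signals by an offset, the difference was +0.18 with an adjusted p of 1.

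Endou was also read at the other time points and after 1 Hz stimulation. At 8 h after 1 Hz its levels lay between −4.95 and −4.75 on 4 arrays, none of them well above background. The iTBS arrays were +4.04 ± 0.52 above these, and Endou was the 1 probe of 35694 (0.0028%) to pass that comparison. The 1 Hz and iTBS groups share the sham arrays, and the 1 Hz minus sham difference was −0.11. At 0, 2, 24 and 48 h iTBS minus sham was +0.38, +0.27, +0.18 and +0.63. The 8 h difference exceeded the mean of these by 3.57 ± 0.61 (adjusted p = 0.012), 1 of 2 probes (0.0056%) to pass this test of the difference itself, and A_44_P1130837 was the other. Outside the iTBS 8 h group, Endou was well above background on 1 array each of the untreated 0 h, 1 Hz 24 h and iTBS 48 h groups, with signals up to 32.4, so that it met the filter of 3 arrays without the iTBS 8 h group. Both arrays of 1 Hz at 2 h gave 11.1 and 14.5, not well above background.

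**Figure D1:**
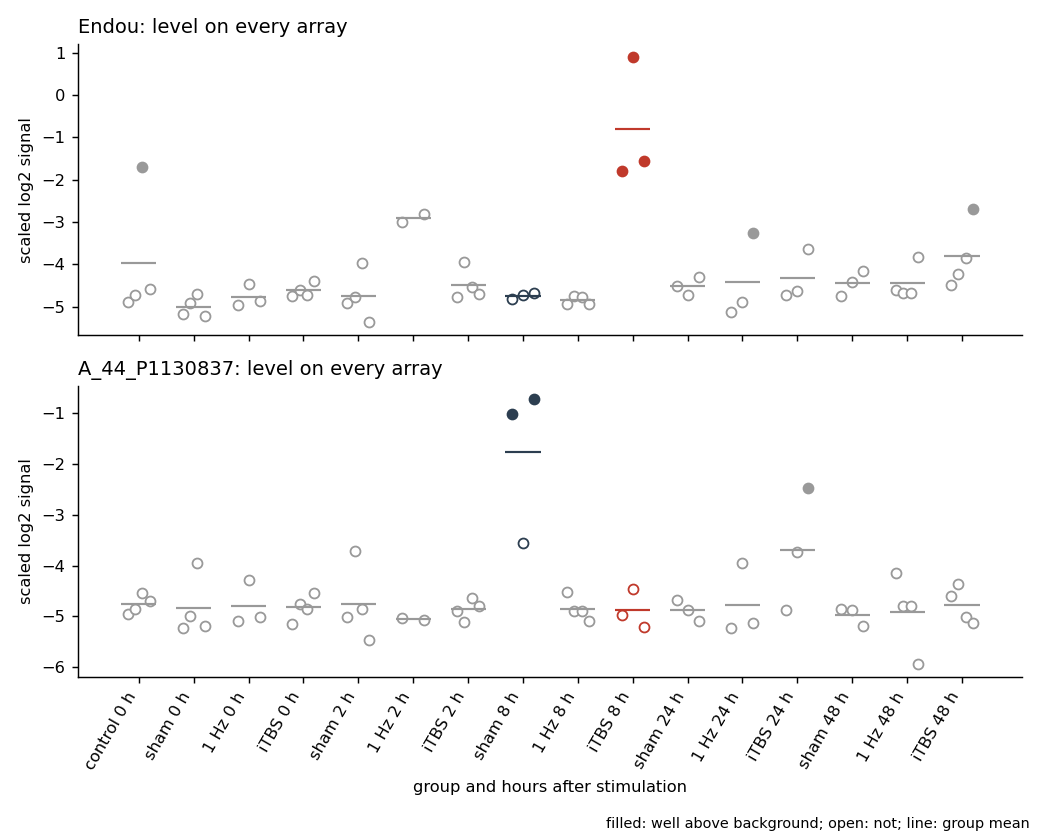
Level of the 2 passing probes on each of 55 arrays (scaled log2 signal), by group and hours after stimulation. Each point is 1 array, filled where the probe was well above background, and lines are group means: Endou stands at −1.78 to 0.90 on the iTBS arrays at 8 h and at −4.81 to −4.68 on sham, and A_44_P1130837 is well above background on 2 sham arrays at 8 h and 1 iTBS array at 24 h.

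Spots next to that of Endou also brightened on the iTBS arrays. The array holds 384 rows of 164 columns, and Endou has 1 spot, in row 382 and column 137. The 3 probes whose levels over 55 arrays were most like those of Endou lie within 2 rows and 2 columns of it. A_44_P1104160 (Pearson r = 0.769) is 2 rows away in the same column, the probe for S100a8 (r = 0.678), a calcium-binding protein of neutrophils and monocytes, is 1 row and 2 columns away, and A_44_P1136247 (r = 0.622) is 2 rows and 1 column away. Without the iTBS 8 h arrays, over the other 52, these correlations were 0.531, 0.624 and 0.429. They are descriptions over arrays that share slides and scans.

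The 24 spots within 2 rows and 2 columns of Endou show where this brightening occurred. Of these, 7 were not well above background on any of the 3 sham arrays. On the iTBS arrays of series B, C and D, 1, 5 and 3 of the 7 were well above it, against 3.60%, 3.11% and 11.2% of all 14347 spots of the array that were dim on the sham arrays. A_44_P1143428, 1 row away in the same column, gave 147 in series C of iTBS and 3.21 to 4.40 on the other 5 arrays. The probe for S100a8 gave 204 in series D of iTBS and 3.60 to 4.43 on sham. Spot values were scaled over the spots of each array, which gives smaller differences than the scale over probes. On this spot scale the mean iTBS minus sham difference of the spots around Endou was +0.71, and only 10 of the 35694 probes had a higher value. By series it was +0.14, +1.51 and +0.48, so it was highest in series C, where Endou itself was highest. The spot of Endou differed by +2.65, +4.94 and +2.75 on the spot scale. With the mean deviation of the surrounding spots subtracted from each spot on each array, Endou was still +3.22 higher (adjusted p = 9.6e-05). That mean was taken over all 24 spots, not only the 7 dim ones. In series C it was +1.51, while A_44_P1143428 differed by +4.61. The subtraction therefore cannot take out a brightening confined to dim spots. The part of the position on the array in the Endou result was not tested.

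**Figure D2:**
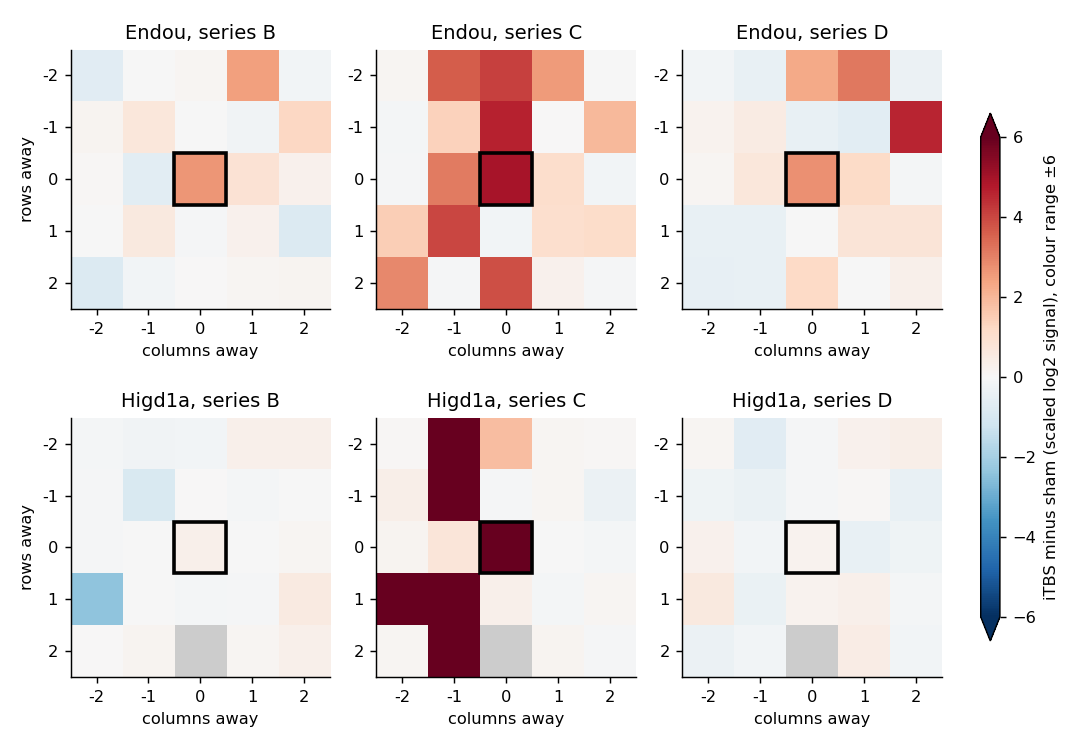
iTBS minus sham difference (log2 signal scaled over spots, color range ±6) of the spots within 2 rows and 2 columns of Endou (top) and Higd1a (bottom), 1 panel for each series pair, with the probe's own spot outlined and grey where there is no value. On this scale the spot of Endou differs by +2.65, +4.94 and +2.75 in series B, C and D. In series C several spots beside Endou are raised together with it, by 1.51 on average over the surrounding spots, and spots in the column next to Higd1a are raised on the same array.

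The probe A_44_P1130837, in row 376 and column 106, showed the opposite arrangement. Its signals were 43.5, 9.97 and 55.3 on the sham arrays of series B, C and D and 2.88 to 4.67 on the iTBS arrays. Sham levels were −1.0, −3.56 and −0.71, with 2 of 3 arrays well above background, and iTBS levels −4.97, −4.47 and −5.21, with none. The groups did not overlap, and the sham array of series C lay nearer to the iTBS arrays than to the other 2. The difference was −3.12 ± 0.50 (SE, n = 3 and 3; limma adjusted p = 0.0031), at least 2.57-fold lower after iTBS, with an adjusted p of 0.029 with the series as a block. The sham arrays at 8 h were the ones that stood apart: the 1 Hz minus sham difference was −3.10, the iTBS minus 1 Hz difference −0.02, and outside the 8 h sham group 1 array, of iTBS at 24 h, was well above background. Those 3 arrays just met the filter, so the probe was tested only through the sham group in which it was high. The 8 h difference was 3.45 ± 0.55 lower than the mean of the other time points, that is −3.45 (adjusted p = 0.006). The 24 spots around it averaged +0.05, and with their mean deviation subtracted the difference was −3.17 (adjusted p = 0.0013). Of these, 6 were not well above background on any of the 3 iTBS arrays. On the sham arrays of series B, C and D, 0, 1 and 2 of the 6 were well above it. In series D of sham this held for 227 of all 13112 spots dim on the iTBS arrays. Of the 5 dim on the sham arrays, 2 were well above background in series D of iTBS, against 11.2% of all such spots. The part of the position on the array was not tested here either. The call rests on series B and D of sham, since adjusted p was 0.203 without the first and 0.208 without the last, and it was 0.939 without both arrays of series D. With only the 6 arrays in the fit it was 1.

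No gene measured on all 6 arrays passed. Of the 11335 genes well above background on all 6 arrays, 6 had an unadjusted p under 0.05 and the same direction in all 3 series. Higd1a, which encodes a mitochondrial protein induced by hypoxia, had sham levels of 2.35, 2.43 and 2.78 and iTBS levels of 2.66, 9.26 and 2.93, a difference of +2.43 ± 0.76 (adjusted p = 1). One array carried it: the signal was 62061 in series C of iTBS, against 519 and 1193 in series B and D and 391.5 to 642 on sham. On that same array 2 spots next to that of Higd1a, A_64_P028451 and A_44_P520642, read 47015 and 22499, and on the other 5 arrays they read 3.14 to 6.78. Without that array the Higd1a difference was +0.28. The mean difference of the spots around Higd1a was +2.26 in series C and −0.11 and −0.06 in series B and D.

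Gys2, the glycogen synthase of liver, had sham levels of −2.40, −1.70 and −1.59 and iTBS levels of −0.79, −1.11 and −0.78. The groups did not overlap and the difference was +1.00 ± 0.37 (95% interval 0.264 to 1.75; unadjusted p = 0.009, adjusted p = 1). With the series as a block its unadjusted p was 0.00028 and its adjusted p 0.68. After 1 Hz Gys2 was +0.72 against the same sham arrays, and the spots around it averaged +0.23 after iTBS. Tpsb2, a tryptase of mast cells, differed by +0.86 ± 0.42, with series D of iTBS alone at 1.78. On that same array A_44_P518489, 1 row and 1 column away, read 273, against 4.13 to 15.3 on the other arrays. The spots around Tpsb2 averaged +0.14, −0.01 and +0.65 in series B, C and D. Klhl26, an adaptor of ubiquitin ligases, differed by +0.58 ± 0.26 and Glb1l, a relative of the lysosomal beta-galactosidase, by +0.56 ± 0.23. Cd28, a costimulatory receptor of T cells, was the single gene in the lower direction, with sham levels of 4.64, 4.50 and 4.82, iTBS levels of 3.39, 4.15 and 4.07 and a difference of −0.78 ± 0.37. Its groups did not overlap, and its adjusted p was 1.

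Gene lists are described by the median difference of their tested members, and these medians were small and depended on single arrays. Of the 37 lists, 34 had a median that changed sign when 1 or another of the 6 arrays was left out, which leaves the series unequal between the groups, and 7 changed sign under at least 1 of 4 other scalings. Astrocyte markers were the 1 list whose median kept its sign throughout. The medians below are descriptions on the main scale, and other values are given for only some lists. Left out there, for example, are −0.30 for immediate-early genes without sham series C and −0.26 for interneuron markers without iTBS series D. The myelin median was −1.03 without iTBS series C and +0.84 without iTBS series D. With slide as a block the median over all genes was −0.02, that of cholesterol synthesis +0.22 and that of immediate-early genes +0.52.

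Immediate-early genes gave no called change, and their levels followed the series. Fos was at 0.79, −1.18 and 1.39 on the sham arrays of series B, C and D and at 1.19, −1.21 and 1.86 on the iTBS arrays. The lowest sham level and the lowest iTBS level were thus both in series C, and the gap between series exceeded any gap within one. The difference was +0.28 ± 1.35, with a 95% interval of −2.44 to 3.0 that narrowed to −0.38 to 0.95 with the series as a block. Arc, at 4.21, 1.96 and 2.48 in sham and 4.45, 1.67 and 3.15 in iTBS, differed by +0.21 (blocked interval −0.30 to 0.71). Egr1, at 2.21, 1.23 and 3.70 in sham and 2.26, 1.38 and 3.22 in iTBS, differed by −0.09 (blocked interval −0.81 to 0.63). Npas4 was not well above background on any of the 6 arrays, so no direction is given for it. Of 23 immediate-early transcription factors tested, 13 were positive and the list had a median of +0.09, against +0.02 over the 13888 genes tested, of which 7578 were positive. Ier2 had −0.44 and Nr4a1, an orphan nuclear receptor, −0.24, the smallest p-values among those well above background on all 6 arrays, and neither passed. Another, dimmer probe of Ier2 gave +0.08.

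Among the slower activity genes 21 of 27 were positive, with a median of +0.15, and none passed. The median was +0.05, +0.07 and +0.28 in series B, C and D, and 8 genes were higher in all 3 series while 1 was lower in all. Over all 13888 genes 1595 were higher and 1429 lower in all 3. The median was −0.06 without sham series C, −0.03 without iTBS series D and +0.08 without both arrays of series D. Bdnf, the activity-dependent neurotrophin, was at 2.21, 1.46 and 2.85 in sham and 2.50, 1.53 and 3.50 in iTBS. The iTBS level was above its sham partner in each series, by less than the gap between series C and D, and the difference was +0.33 (blocked 95% interval −0.12 to 0.79). Cartpt, a neuropeptide precursor, differed by +0.22, +0.52 and +1.69 in the 3 series, for a mean of +0.81 ± 1.05 (unadjusted p = 0.03 with the block, adjusted p = 1). The 1 Hz group gave a median of +0.30 for the same list against the same sham arrays. Of the MAPK feedback genes, which encode phosphatases and adaptors that switch off growth factor signaling, 8 of 13 were positive, with a median of +0.08, and of neurotrophins and their receptors 10 of 17 were positive, with a median of +0.06. Spred2 at +0.42, Dusp10 at +0.32 and Ntf3, a neurotrophin, at +0.57 did not pass, nor did Ntrk2, the receptor of Bdnf, at −0.28. Other probes of Ntrk2 ran from −0.07 to +0.23.

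Receptors and channels stayed near the sham level on this scale. For AMPA and kainate receptors the median over 15 genes was +0.03, for 7 NMDA receptor genes −0.07, for 8 metabotropic glutamate receptors +0.08 and for 16 GABA receptor genes +0.05. Grm3, a metabotropic receptor that lowers cyclic AMP, differed by +0.22 ± 0.29 and Gabrd, the delta subunit of extrasynaptic GABA-A receptors, by +0.07 ± 0.17 (95% interval −0.26 to 0.41). Gabbr1, the ligand-binding subunit of the GABA-B receptor, was at 6.96 ± 0.05 (SD, n = 3) in sham and 6.75 ± 0.20 in iTBS, a difference of −0.21. Another probe of Gabbr1 gave −0.02. Camk2g, a subunit of the calcium- and calmodulin-dependent kinase II, was read by 2 probes, with differences of −0.09 and +0.04. Postsynaptic scaffolds (20 genes) and sodium and calcium channels (22 genes) both had a median of +0.02, presynaptic vesicle genes (31) +0.07 and calcium and calmodulin signaling (22) +0.05. Potassium and HCN channels, which set firing threshold and rhythm, were positive for 31 of 41 genes, with a median of +0.09 that was +0.03 after scaling by the 75th percentile. None of the 41 passed.

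The study named sets of GABA signaling, glutamate signaling, learning and Alzheimer disease genes on samples that include these, so the sets are not independent evidence of a direction. None of their genes passed at 8 h. The medians were −0.01 over 9 genes, +0.04 over 16, −0.05 over 13 and −0.02 over 12, and 4, 10, 5 and 4 genes were positive. After quantile normalization the medians were +0.02, +0.06, +0.08 and +0.05, so that 3 of the 4 changed sign with the scaling. Apoe, the main lipid carrier of astrocytes, was at 10.86, 10.99 and 11.43 in sham and 10.63, 11.14 and 10.40 in iTBS. It was lower after iTBS in series B and D and higher in series C, with the widest gap in series D. The difference was −0.37 ± 0.37. Atp2a2, the calcium pump of the endoplasmic reticulum, differed by −0.32 (unadjusted p = 0.031 with the block, adjusted p = 1).

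**Figure D3:**
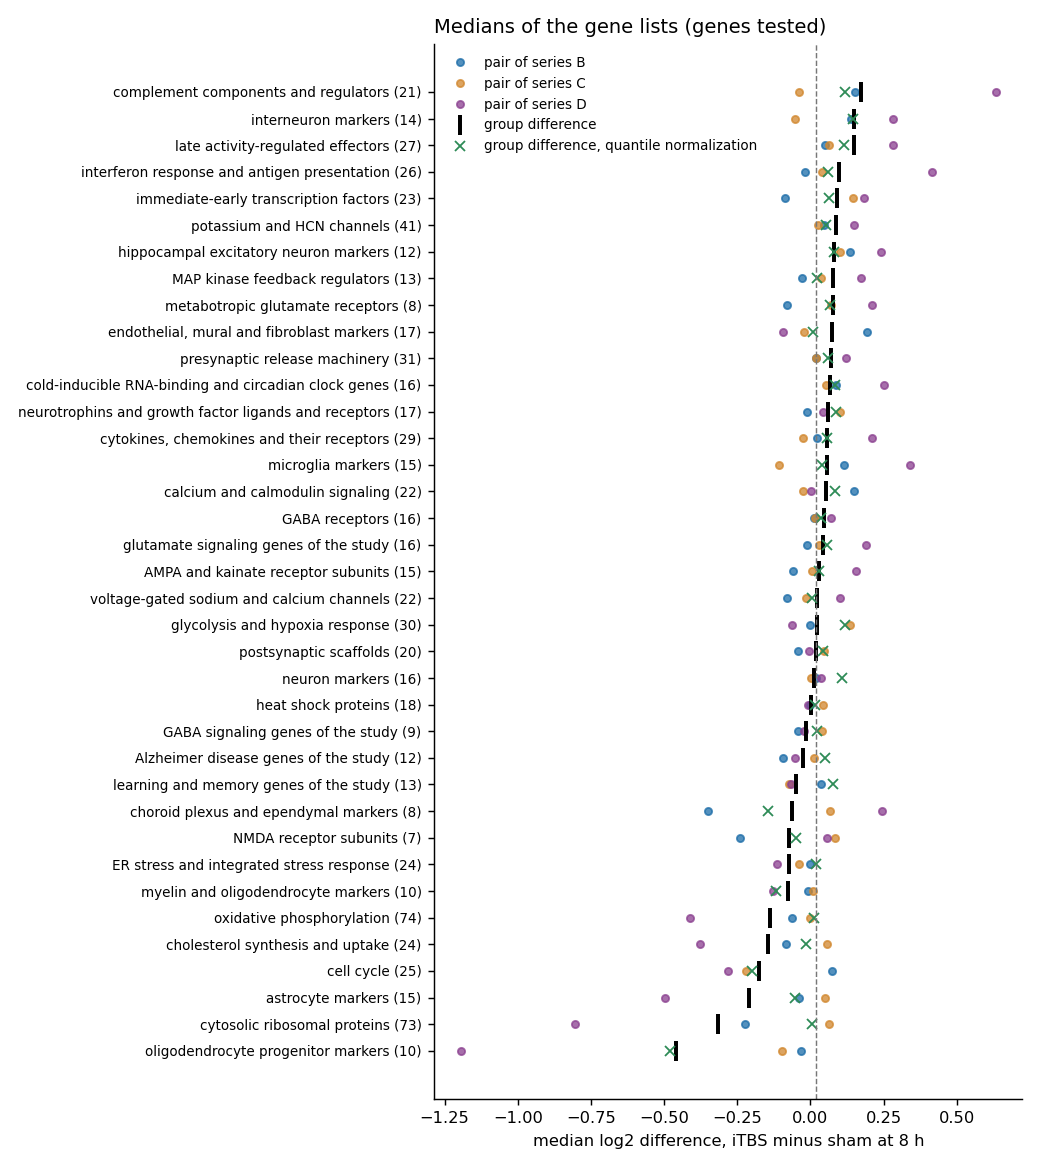
Median iTBS minus sham difference at 8 h over the tested genes of each list (log2 scale, number of genes in brackets), with a point for each series pair, a bar for the difference between the groups, a cross for that difference after quantile normalization and a dashed line at the median of all genes tested. Ribosomal protein genes (−0.32) and oligodendrocyte progenitor markers (−0.46) have the lowest bars, with series D the lowest pair in both, and the cross of the ribosomal list lies at +0.01.

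Genes read at high signal had negative differences on this scale, mostly through series D. Of 73 cytosolic ribosomal protein genes 1 was positive, with a median of −0.32 (−0.22, +0.06 and −0.80 in series B, C and D). Of 74 oxidative phosphorylation genes 6 were positive, with a median of −0.14 (−0.06, −0.00 and −0.41), and of 24 cholesterol synthesis genes 5, with a median of −0.14. None of these genes passed. Rps19, of the small ribosomal subunit, had −0.51, Cox5a, of the terminal respiratory complex, −0.40, and Hmgcs1, an early enzyme of cholesterol synthesis, −0.35, each with an adjusted p of 1. Other probes gave −0.32 to −0.18 for Rps19 and −0.07 for Cox5a. The same direction was present over all probes when these were split into 10 groups of equal size by mean level. In the brightest group the median difference was −0.14, and −0.32 in series D, whereas in the next to dimmest it was +0.13, and +0.36 in series D. The dimmest group went the other way, at −0.07, and −0.24 in series D. After quantile normalization, which gives all arrays the same distribution of values, the brightest group had a median of 0.00 and the 3 lists had +0.01, +0.01 and −0.02. After scaling by the 75th percentile they had −0.07, −0.00 and −0.06. The ribosomal and oxidative phosphorylation medians therefore changed sign with the scaling and that of cholesterol synthesis came near 0, and the last was +0.25 without sham series B and +0.09 without iTBS series D.

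**Figure D4:**
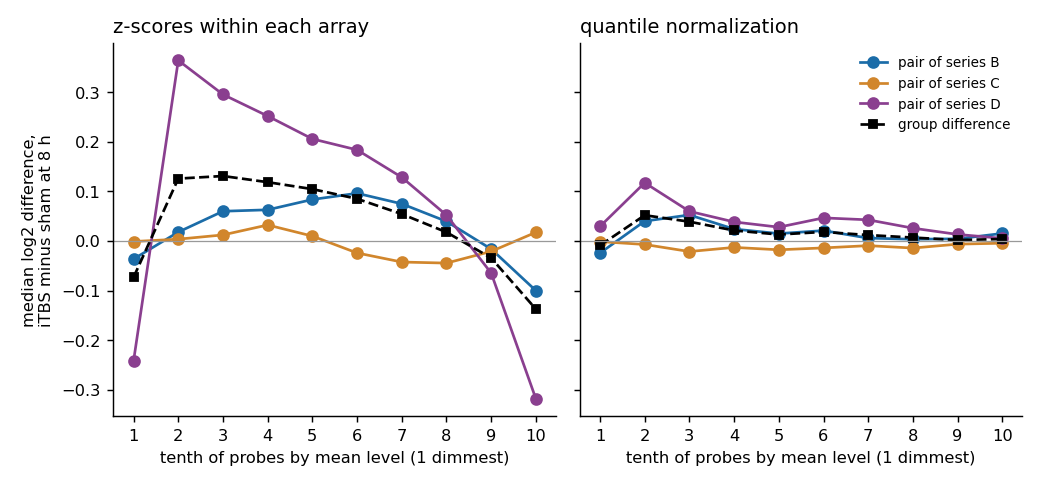
Median iTBS minus sham difference (log2) over probes in 10 groups of equal size by mean level, dimmest first, for each series pair (colored lines) and between the groups (dashed), with z-scores within each array on the left and quantile normalization on the right. On the left series D runs from +0.36 in group 2 to −0.32 in group 10, and on the right from +0.117 to +0.005. The dashed line on the right runs from +0.05 in group 2 to 0.00 in group 10.

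Oligodendrocyte progenitor markers had negative differences, nearly all of it in series D. Over 10 markers the median was −0.46, with −0.03, −0.10 and −1.19 in series B, C and D, and it was −0.47 after scaling by the 75th percentile and −0.48 after quantile normalization. Without both arrays of series D the median was −0.06, and without the iTBS array of series D alone it was +0.34. Sox10, a transcription factor of the lineage, differed by −0.03, −0.14 and −2.22 in series B, C and D. Pdgfra, the growth factor receptor that marks progenitors, differed by −0.13, −0.02 and −1.78, and Olig2, another lineage factor, by −0.27, −0.13 and −1.30. With the series as a block unadjusted p was 0.04, 0.014 and 0.005 for these 3 genes, none passed after adjustment, and Neu4 and Enpp6 were positive. The 1 Hz group had a median of −0.24 against the same sham arrays.

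Summed signals of marker lists place this difference among larger ones between series. As a percent of the array's 75th percentile, the progenitor markers summed to 3651, 3435 and 892 on the iTBS arrays of series B, C and D and to 3649, 3630 and 1452 on the sham arrays (exact permutation test, two-sided, p = 0.7). Series D was low in both groups. Myelin genes ran from 84.3 to 2707 in iTBS and from 107 to 2369 in sham, with series C the highest in both. Choroid plexus and ependymal markers were 137, 1053 and 93.5 in iTBS and 440, 598 and 114 in sham. Neuron markers were more even, at 5394 to 7802 and 5081 to 7405, and microglia markers lay between 256 and 282 on all 6 arrays. Only 8 of the 15 microglia markers were well above background on all 6 arrays, and a sum of signals follows its brightest members. The p-values of the 9 marker sums ran from 0.6 to 1. Each of the 9 sums overlapped between the groups. Within series, neuron marker sums were higher after iTBS in all 3, at 5394 against 5081, 6306 against 6135 and 7802 against 7405, and the other 8 lists had no single direction. The part of cell makeup in the gene differences was not tested.

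**Figure D5:**
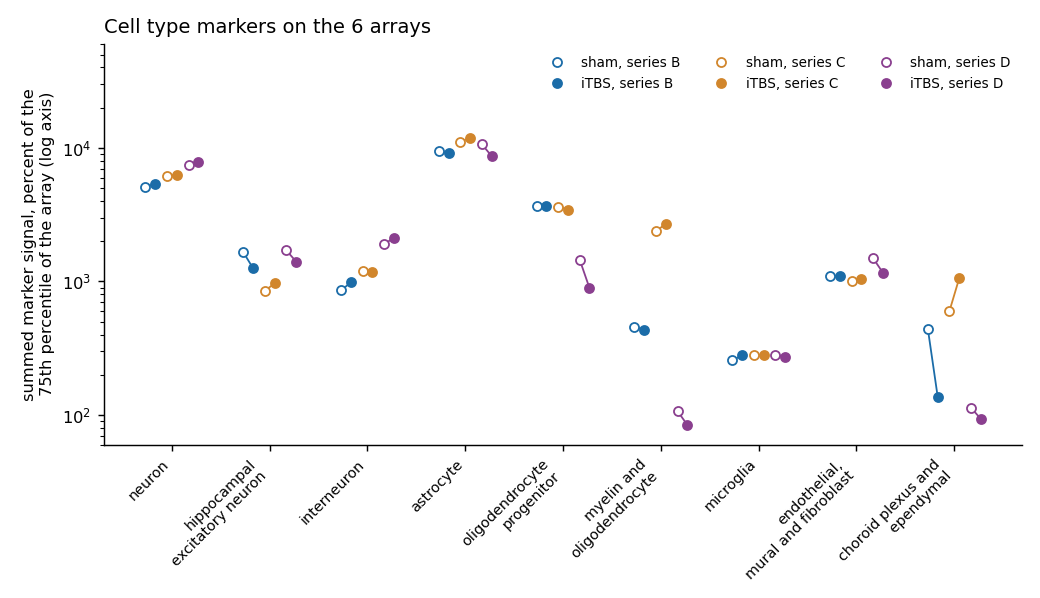
Summed processed signal of each marker list on the 6 arrays at 8 h, as a percent of the array's 75th percentile (log axis), with lines joining the sham and iTBS arrays of 1 series. Progenitor markers stand at 892 and 1452 in series D and at 3435 to 3651 in series B and C, and myelin genes span 84.3 to 2707.

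Astrocyte markers had 2 of 15 genes positive and a median of −0.21 (−0.04, +0.05 and −0.50 by series), which was −0.05 after scaling by the 75th percentile or quantile normalization. Gfap, the intermediate filament of astrocytes, was at 4.09, 3.20 and 5.23 in sham and 4.21, 3.40 and 5.03 in iTBS, a difference of +0.04 ± 1.02 with a blocked interval of −0.49 to 0.57. Neuron markers had a median of +0.01 over 16 genes, which was +0.11 after either of those scalings, hippocampal excitatory markers +0.08 over 12 and interneuron markers +0.15 over 14. Microglia markers had +0.06 over 15 genes and endothelial, mural and fibroblast markers +0.07 over 17, and myelin genes had −0.08 over 10 and choroid plexus and ependymal markers −0.06 over 8.

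Cell cycle genes had 2 of 25 positive, Ccnd2 and Aurkb at +0.03 and +0.04, and a median of −0.18. This median was +0.07, −0.22 and −0.28 in series B, C and D and −0.20 after scaling by the 75th percentile or quantile normalization. It was −0.08 without both arrays of series D, +0.09 without sham series B and +0.33 without iTBS series D. Mki67, a marker of dividing cells, had −0.35 (unadjusted p = 0.035 with the block) and Cdk1, the kinase of mitotic entry, −0.32 (unadjusted p = 0.043 with the block), and neither passed after adjustment. In all, 10 of the 25 genes were lower in each of the 3 series, against 1429 of all 13888.

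Stress and immune lists had no passing gene. Glycolysis and hypoxia genes had a median of +0.02 over 30 genes, heat shock genes 0.00 over 18, cold and clock genes +0.07 over 16 and endoplasmic reticulum stress genes −0.07 over 24. After quantile normalization the first of these was +0.12 and the last +0.02. Adm, a vasodilator peptide induced by hypoxia, was at 3.89, 2.08 and 4.02 in sham and 4.13, 4.40 and 4.40 in iTBS. These groups did not overlap, the difference was +0.98 ± 0.77 (unadjusted p = 0.029 with the block, adjusted p = 1), and most of it came from the low sham array of series C. After 1 Hz Adm was +1.45 against the same sham arrays. Per2, a repressor of the circadian clock, had +0.33 with no overlap, Hspa8, a constitutive chaperone, −0.55 and Rbm3, a cold-inducible RNA-binding protein, −0.32, all with an adjusted p of 1. Complement genes were positive for 16 of 21, with a median of +0.17 (+0.15, −0.04 and +0.63 by series) that was +0.05 after scaling by the 75th percentile. Cytokine and chemokine genes had a median of +0.06 over 29 genes and interferon-response genes +0.10 over 26. Gbp2, an interferon-induced GTPase, had +0.48 and Mx2, an antiviral GTPase, −0.49, and neither passed.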

How the data were processed

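Total RNA labelled with Cy3 was hybridized to 1-color Agilent rat arrays. The intensity values were deposited by the authors as output of Agilent Feature Extraction 12.0.3.1 (header build rn4), which subtracts background. The deposited score table holds z-scores of log10 signal within each array, and recomputation differed from it by at most 0.005. The number of arrays limits precision, and no spot was saturated.

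Groups were taken from titles. One array, 1 Hz at 2 h, with a badly placed grid was left out, leaving 55. Outlier-flagged spots were dropped, log2 processed signals were averaged per probe, z-scored within each array and multiplied by the median SD of 4.06. Of the probes, 35694 were tested because at least 3 arrays read them well above background, 9484 were not tested and 420 had no value. The model was fitted in R 4.3.3 with limma 3.58.1 as group means with 39 residual degrees of freedom, 2-sided, Benjamini-Hochberg adjusted at 0.05. A fold against a dim group is a bound, taken from the lowest signal well above background on each array unless the probe itself read higher. Symbols were matched by accession to RefSeq (GRCr8, names only) for 21109 of 45598 probes, giving 16581 genes. For each gene in a list 1 probe, the one with the highest mean signal, was used.

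Deviations from group means correlated at 0.602, 0.48 and 0.551 for iTBS and sham arrays of the same sample-number series and at −0.428 to −0.0852 for different series, so replicate numbers were taken as pairs in the blocked fit. Deviations within a group sum to 0. Where values for the same series are positive, those for different series are thereby pulled below 0 and add no separate evidence. The labels do not say what the series are.

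Genes named were every passing probe and the 3 probes most like the first of them, up to 10 in each direction well above background on all 6 arrays with an unadjusted p under 0.05 and 1 direction in the 3 pairs, up to 2 per list with the smallest p, and 10 fixed genes (Fos, Arc, Egr1, Npas4, Bdnf, Gfap, Camk2g, Grm3, Gabrd, Apoe). Other list members named (Pdgfra, Olig2, Sox10, Neu4, Cdk1, Ccnd2, Aurkb) were chosen after their values were seen. The groups compared, the 37 gene lists and the tests were chosen with earlier results of these data known.

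The alternatives were other scalings (75th percentile, quantile, the deposited score), normexp (offset 50) with quantile normalization, other filters, the 6 arrays alone, blocks for series and slide, a variance trend, leaving out each replicate, and the study's joint criteria (analysis of variance p under 0.05, z-test p under 0.05, z-ratio over 1.5, false discovery rate under 0.3 and average z-score over 0). The methods do not give the form of the z-test. Here it used the variance of each group's own 3 arrays, and its counts are those of this implementation. The files hold no mean signal, so normexp used the median signal and median background. Subtracting the spots within 2 rows and 2 columns, leaving out series D and joining trend and block were chosen after seeing the data. Scripts were tested on simulated data.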

Additional observations from a re-analysis of the deposited data

Results flagged for a closer look

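The iTBS minus sham difference at 8 h differed from its mean at 0, 2, 24 and 48 h for 2 probes, by limma's test of that difference. Endou was higher by 3.57 ± 0.61 (SE; adjusted p = 0.012), and A_44_P1130837 was at −3.45 ± 0.55 (adjusted p = 0.006). For A_44_P1130837 it is the sham arrays at 8 h that stand apart from the other groups, and for Endou it is the iTBS arrays. A_44_P1130837 met the filter of 3 arrays only through that sham group, which held 2 of them. Its adjusted p is therefore not independent of the way it entered the test.

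The level of Endou stood apart on single arrays of 2 other groups. One untreated array at 0 h was at −1.70, and the nearest of the other 3 was at −4.58. One 1 Hz array at 48 h, not well above background, was at −3.82, with the nearest at −4.62. The gap made up 0.903 and 0.931 of the range of the group, above the critical value of 0.829 for 4 arrays. Chance alone flags about 1 in 20 groups.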

How the results depend on the processing

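The 2 probes passing iTBS against sham at 8 h numbered 2 again under scaling by the 75th percentile, quantile normalization, the deposited score, no filter on dim probes, all 56 arrays, slide as a block, a variance trend and subtraction of the surrounding spots. The count was 0 with normexp (260 at an unadjusted p under 0.05), 0 from limma on only the 6 arrays (378 unadjusted), 0 on these with the series paired (1254 unadjusted) and 0 by the study's joint criteria as implemented here (2 without the analysis of variance and false discovery filters). It was 1 under the stricter filter (of 28201 probes), 1 with trend and block together, 1 without both arrays of series D, and 1 to 3 when each replicate was left out (1 without sham series B or iTBS series D). With a replicate block, the series within each time point, it stayed at 2, and the block changed no named gene's call. Against 1 Hz the 1 passing probe became 0 with normexp (361 unadjusted), 2 with the block and 2 without series D, and 1 to 2 with replicates left out. The 2 probes particular to 8 h became 1 under the 75th percentile, 1 under the stricter filter, and 0 with normexp, with trend and block or without series D (300, 2056 and 284 unadjusted), and 0 to 2 with replicates left out. Endou passed whichever replicate was left out. A_44_P1130837 did not pass with normexp (−0.56, adjusted p = 0.0538), without iTBS series D (0.0571) or with trend and block (0.0636). Of the 84 other named genes none passed in any alternative and 48 kept their sign in all. The cause of these changes was not tested. Near background, where both passing probes lie, a small signal makes a large log2 difference.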
